A study of Brassica napus with 12 samples.

Results

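The 100 most abundant gene IDs of canola leaf polysomes were chosen by their mean CPM (the count divided by the library's total count, times 1000000) over all 12 libraries of the series, out of 60756 IDs. Abundance therefore selected them and is described without a test. The differences between lines and between experiments did not enter the choice, and these were tested.

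The libraries came from leaf 4 of Brassica napus plants (canola, an oilseed crop) at an age of 26 days. All plants spent 2 weeks on agar with sucrose and 12 days in greenhouse soil, and none was treated. The PEG experiment held the selected lines PEG-1 and PEG-2 and the PEG control line, with 2 libraries each, and the EUE experiment held the EUE epiline and the EUE control line, with 3 libraries each. Epiline is the submitters' word for a line they selected, here for low respiration with a high NAD(P)H content. The labels give all lines 1 cultivar and call the libraries biological replicates, without saying whether plants were pooled or how often a line was selected independently. The submitters' design text speaks of both epilines in triplicate, which does not match 3 selected lines and 2 libraries in each PEG group, and the groups here follow the sample labels. P-values therefore measure only the spread between these libraries.

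Polysomes are messenger RNAs loaded with several ribosomes, so an ID's count reflects both how much of its RNA a leaf holds and how much of that RNA was carried down with ribosomes. In green leaves, messages for the small subunit of Rubisco, for chlorophyll-binding proteins and for other parts of photosynthesis are usually among the most abundant. Canola is a polyploid that carries near-identical copies of most genes, one set from each parental genome. The IDs here are numbers beginning with ERF, with ERC, or with both joined by a hyphen, and 0 of them matched the gene table supplied for the species. No gene name, leaf cell type marker or function can therefore be given for any of them, and the background above is not a statement about a particular ID.

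Each library held 36210542 to 42696798 counts, all of them even numbers, so a total may count both reads of a pair. Of the 60756 IDs, 13162 were at 0 throughout and 36410 were tested, and all 100 abundant IDs were among the tested ones. Counts were not divided by transcript length, so the ranks order reads and not molecules. How reads of near-identical copies or overlapping genes were assigned, and whether strand was used, is not stated in the sources used here, so the level of any single copy is uncertain. Whole leaves were sampled, and fewer cells of a type cannot be told apart from less RNA per cell.

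The count was concentrated in few IDs. By mean CPM, 7 IDs held 10% of the counts, 36 held 25%, 358 held 50% and 9533 held 90%. Mean CPM was 18988 at rank 1 and 7860 at rank 10. At the border, ERF82350-ERC36939 (rank 99) had 1137 CPM and ERF74614-ERC37418 (rank 100) had 1132.5 CPM, while ERF81913-ERC39313 and ERF92101-ERC52178, the next IDs outside it, had 1132.4 CPM and 1090 CPM. The border thus ran through nearly equal values, and leaving out any 1 library kept 99 or 100 of the 100 IDs.

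The 100 IDs held at least 33.8% of all counts in each library. Their share was 37.7% and 36.8% in the PEG-1 libraries, 36.7% and 39.0% in the PEG-2 libraries, and 38.5% and 38.4% in the PEG control libraries. In the EUE experiment it was 34.9%, 33.8% and 34.7% in the epiline and 37.0%, 34.0% and 36.8% in the control. Both PEG-1 libraries were below both PEG control libraries, PEG-2 lay on either side of its control, and the EUE epiline overlapped its control while being below the control library of the same replicate number in all 3 pairs.

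As group means, the share was 37.3% ± 0.677 in PEG-1 and 37.9% ± 1.62 in PEG-2, against 38.5% ± 0.105 in the PEG control (SD, n = 2 each). It was 34.5% ± 0.577 in the EUE epiline, against 35.9% ± 1.71 in the EUE control (SD, n = 3 each). Over experiments, the PEG libraries ranged from 36.7% to 39.0% with a median of 38.1%, and the EUE libraries from 33.8% to 37.0% with a median of 34.8%, so the ranges overlapped slightly.

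The shares were also split by rank. The 10 most abundant IDs, ERF91594 among them, held 12.8% to 13.9% of the counts in PEG libraries and 10.98% to 12.4% in EUE libraries, without overlap. Ranks 11 to 20 held 6.09% to 7.03% in PEG libraries and 5.67% to 6.23% in EUE libraries, with some overlap. Ranks 51 to 100 lay the other way, with 6.83% to 7.72% in PEG libraries and 7.43% to 8.30% in EUE libraries, with some overlap. ERF91594, the ID at rank 2, by itself held 1.92% to 2.96% in PEG libraries and 0.81% to 1.44% in EUE libraries. The share of the 10 most abundant IDs was not computed library by library without ERF91594. As group means, the 10 held 13.7%, 12.9% and 13.3% in the PEG control, PEG-1 and PEG-2. They held 11.95% and 11.4% in the EUE control and epiline. ERF91594 held 2.62%, 2.57% and 2.44% in those PEG groups, and 1.04% and 0.938% in those EUE groups. Most of the gap between experiments in the 10 IDs was thus that of ERF91594. Without it the other 99 IDs held 34.1% to 36.2% in PEG libraries and 33.0% to 36.0% in EUE libraries, so that the ranges overlapped widely.

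**Figure D1:**
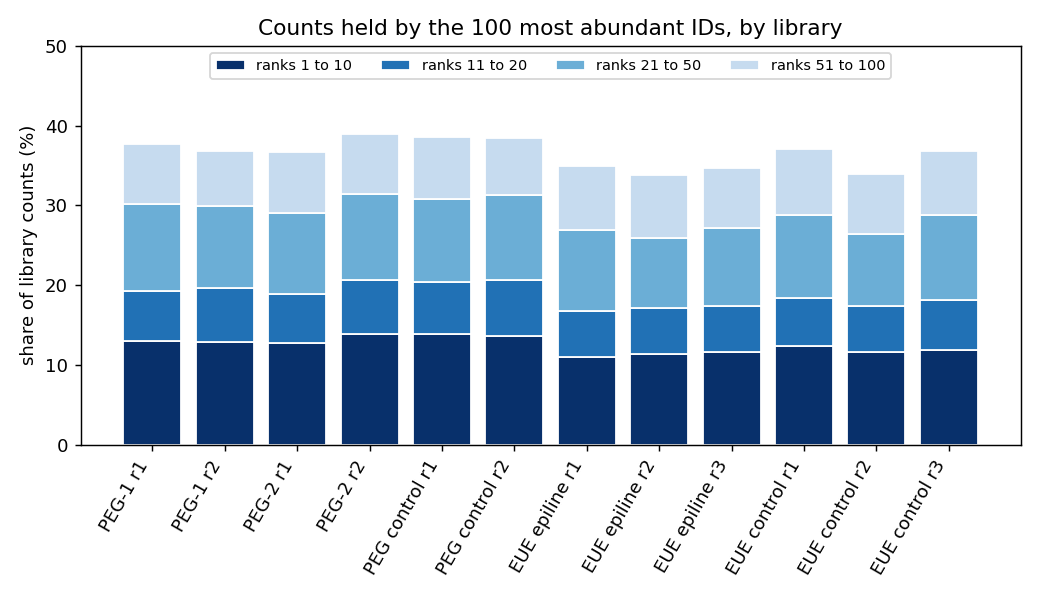
Share of each library's total count (percent) held by the 100 most abundant IDs, split by rank, for each library of PEG-1, PEG-2, PEG control, EUE epiline and EUE control. The share of ranks 1 to 10 is 12.8% to 13.9% in PEG libraries and 10.98% to 12.4% in EUE libraries. Of this, ERF91594 at rank 2 holds 1.92% to 2.96% in PEG libraries and 0.81% to 1.44% in EUE libraries.

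The abundant IDs were mostly joined ones. Of the 100, 81 were joined (an ERF and an ERC number together), 10 carried an ERF number only and 9 an ERC number only. Among all 60756 IDs the joined ones made up 35%, the ERF-only ones 36.1% and the ERC-only ones 28.9%, and among the 36410 tested IDs they made up 47.5%, 28.8% and 23.7%. The next 100 IDs by abundance were split 75, 11 and 14, close to the abundant 100. Within the top 10 the split was 6, 2 and 2. The labels do not say what the joining stands for.

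The counts of the 100 IDs were also summed by class. The 81 joined IDs held 27.8% to 29.2% of the counts in PEG libraries and 25.3% to 28.4% in EUE libraries. The 10 ERF-only IDs held 5.44% to 6.29% in PEG libraries and 4.20% to 5.06% in EUE libraries, without overlap, and ERF91594 is one of them. Without it the other 9 held 2.84% to 3.86% in PEG libraries and 3.19% to 4.05% in EUE libraries, so that the ranges overlapped and the medians, 3.28% and 3.63%, lay the other way. All ERF-only IDs of the series together held 17.5% to 17.9% in PEG libraries and 16.04% to 17.2% in EUE libraries, and without ERF91594 they held 14.6% to 15.6% and 15.2% to 16.3%. The 9 ERC-only IDs held 3.37% to 3.66% in PEG libraries and 3.65% to 4.05% in EUE libraries, and the ranges met only at their edge. All ERC-only IDs of the series, these 9 included, held 11.7% to 12.01% in PEG libraries and 12.1% to 12.5% in EUE libraries. The share of the ERC-only IDs outside the abundant 100 was not computed library by library. As group means, all ERC-only IDs held 11.87%, 11.85% and 11.79% in the PEG control, PEG-1 and PEG-2. They held 12.29% and 12.38% in the EUE control and epiline. The 9 abundant ones held 3.58%, 3.37% and 3.49% in those PEG groups, and 3.89% and 3.83% in those EUE groups. Most of the gap between experiments in all ERC-only IDs was thus that of these 9.

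First place was held by ERF93421-ERC39186 in 6 libraries, ERF91594 in 5 and ERF93418 in 1. The values that follow are CPM scaled with TMM, edgeR's trimmed-mean factors, so that libraries can be compared. ERF93421-ERC39186, the first by mean, had 20707 and 15129 CPM in PEG-1, 20239 and 20345 in PEG-2, and 21823 and 16706 in the PEG control. It had 16774, 17753 and 18667 CPM in the EUE epiline and 19946, 18408 and 21315 in the EUE control. Its highest library was 1.44 times its lowest, and both experiments covered the same range.

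ERF91594, second by mean, had the largest SD of log2 CPM over the 12 libraries among the 100 IDs. It had 25045 and 27806 CPM in PEG-1, 19367 and 32546 in PEG-2, and 24370 and 31348 in the PEG control. It had 9475, 7302 and 9646 CPM in the EUE epiline and 14026, 7877 and 8525 in the EUE control. Every PEG library lay above every EUE library, and the first replicate of the EUE control stood above the other EUE libraries.

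ERF93418, at rank 3, had 14751 and 9927 CPM in PEG-1, 16290 and 16628 in PEG-2, and 18811 and 10824 in the PEG control. It had 11294, 17437 and 16243 CPM in the EUE epiline and 14318, 18603 and 16885 in the EUE control. Both experiments overlapped over most of the range, with low values in the second replicates of PEG-1 and the PEG control and in the first replicate of the EUE epiline.

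ERF59790-ERC26231, at rank 4, had 13866 and 17329 CPM in PEG-1, 14911 and 19384 in PEG-2, and 12679 and 22114 in the PEG control, against 10796, 8640 and 11449 CPM in the EUE epiline and 12792, 8901 and 14039 in the EUE control. In each PEG group its second replicate was the higher one. ERC36551, at rank 5, had 11474 and 12854 CPM in PEG-1, 11464 and 13679 in PEG-2, and 13165 and 14273 in the PEG control, against 13231, 12874 and 14745 CPM in the EUE epiline and 14028, 12433 and 15913 in the EUE control. It was among the steadiest of the top 10, with the highest library 1.39 times the lowest.

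The other 5 of the top 10 were ERF80972-ERC49669, ERF76095-ERC44501, ERF61956-ERC56941, ERC39187 and ERF70706-ERC57144. In ERF80972-ERC49669 the highest library was 1.99 times the lowest, with up to 16480 CPM in the PEG control. In the other 4 the ratio lay between 1.36 and 1.44, over lines, experiments and replicates together.

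**Figure D2:**
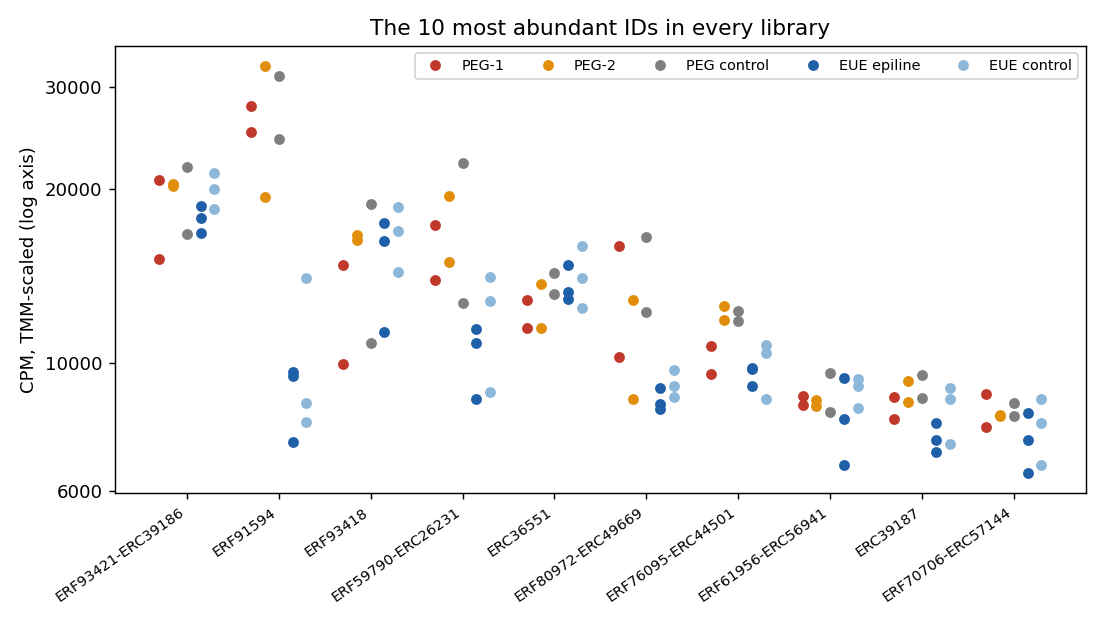
TMM-scaled CPM on a log axis of the 10 most abundant IDs, with a point for each of the 12 libraries coloured by group (PEG-1, PEG-2, PEG control, EUE epiline, EUE control). ERF91594 is the only one of the 10 whose PEG libraries (19367 to 32546 CPM) and EUE libraries (7302 to 14026 CPM) do not overlap.

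Over all 100 IDs, the highest library exceeded the lowest by a median of 1.65 times, with a range of 1.22 to 5.08. In 33 IDs the ratio was under 1.5, in 70 it was under 2, and in 9 it was over 3. The steadiest were ERF86883 and ERF81160, each with an SD of 0.11 on the log2 scale over the 12 libraries. ERF86883 had 1554 and 1482 CPM in PEG-1, 1531 and 1630 in PEG-2, and 1591 and 1401 in the PEG control, against 1446, 1565 and 1728 CPM in the EUE epiline and 1601, 1506 and 1841 in the EUE control. All groups overlapped. ERF81160 ranged from 1445 to 1761 CPM, and its experiments overlapped. The largest SDs were those of ERF91594, at 0.84, and ERF60795-ERC24906, at 0.76, while the largest ratio of highest to lowest library, 5.08, was that of ERF60795-ERC24906.

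Both experiments ranked largely the same IDs first. The 100 most abundant IDs of the 6 PEG libraries and those of the 6 EUE libraries were chosen separately, and 91 IDs (91% of each list) were in both. Of the PEG list, 99 IDs were among the 200 most abundant of the EUE libraries, and all 100 of the EUE list were among the 200 most abundant of the PEG libraries. The exception was ERF90741-ERC29606, rank 94 in PEG and rank 205 in EUE, named here after its ranks were seen. Both lists shared 9 of their first 10 IDs.

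Single libraries varied more. Between 85 and 97 of the 100 IDs were in a library's own top 100, with the fewest, 85, in the second replicates of PEG-1 and the PEG control. In all, 71 IDs were in the top 100 of every library, 99 of the 100 were in every library's top 200, and 134 IDs were in the top 100 of at least 1 library. First place went to ERF91594 in 5 of 6 PEG libraries and to ERF93421-ERC39186 in 5 of 6 EUE libraries. The exceptions were ERF93421-ERC39186 in the first replicate of PEG-2 and ERF93418 in the second replicate of the EUE control.

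**Figure D3:**
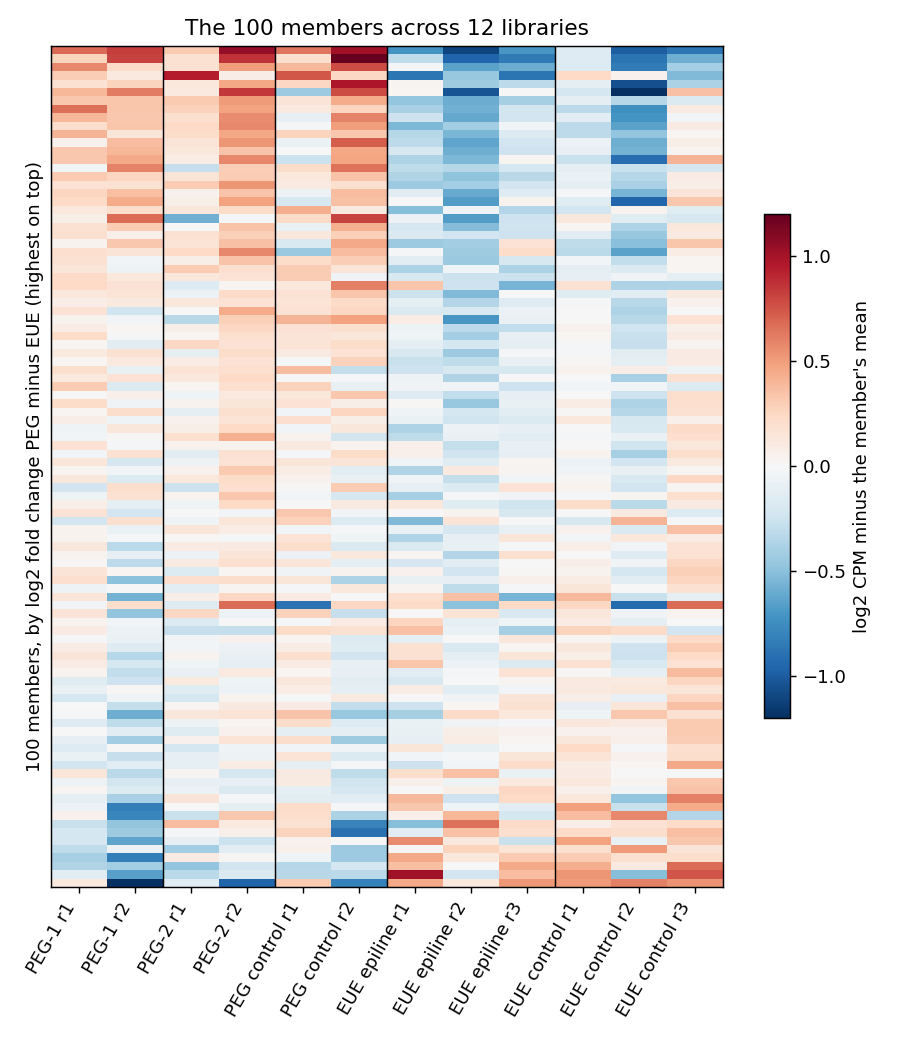
Log2 TMM-scaled CPM of each of the 100 IDs, as the difference from its mean over the 12 libraries, with libraries in columns (PEG-1, PEG-2, PEG control, EUE epiline, EUE control) and IDs in rows, ordered by their log2 fold change in PEG over EUE. The row with the largest SD, 0.84, is ERF91594.

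Replicates of 1 line differed less in the abundant IDs than elsewhere. The SD of log2 CPM between replicates within groups had a median of 0.20 over the 100 IDs, against 0.29 over the 900 IDs that follow in rank and 0.40 over all tested IDs. Since spread falls with the count, this is a description and not a property of these IDs alone. Between the 12 libraries, the sum of squares of log2 CPM was split into experiment, line within experiment, replicate number within experiment, and the rest. The medians over the 100 IDs were 29.0% for experiment, 12.4% for line, 37.1% for replicate number and 12.3% for the rest. Over all tested IDs they were 22.7%, 11.9%, 36.1% and 13.3%.

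Line therefore took the smallest named share although it used 27.3% of the degrees of freedom, as many as replicate number. Replicate number was the largest source for 47 IDs, experiment for 41, line for 7 and the rest for 5. In the PEG experiment, every replicate 2 library was above every replicate 1 library in 22 of the 100 IDs, where 13.1% of all tested IDs did so, and below in 11, where 12.3% did so. ERF60795-ERC24906 was one of the 22. It had 6341 and 9218 CPM in PEG-1, 5979 and 9586 in PEG-2, and 5996 and 13819 in the PEG control, against 4254, 2722 and 2920 CPM in the EUE epiline and 4711, 2872 and 3507 in the EUE control. What the replicate number stands for is not stated beyond the number itself.

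**Figure D4:**
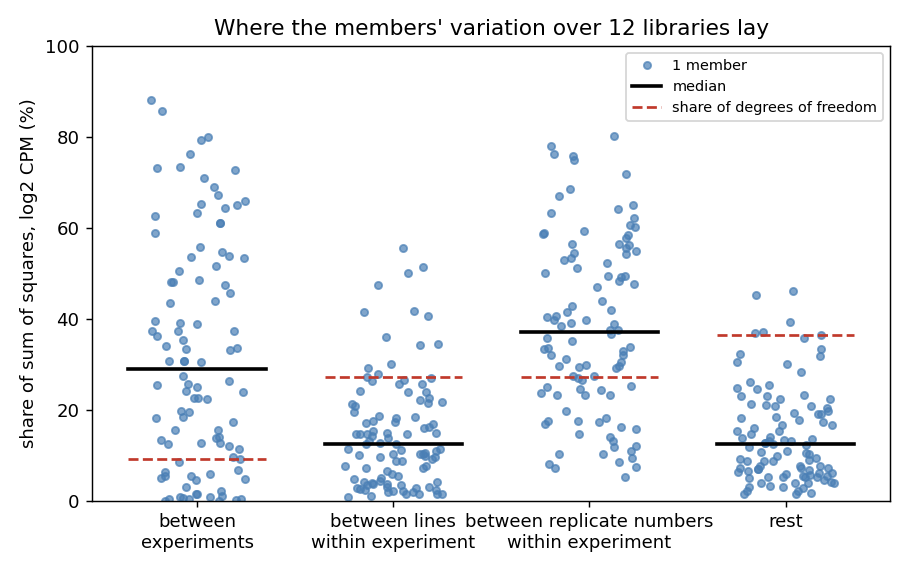
Share of the sum of squares of log2 CPM (percent) that goes to experiment, line, replicate number and the rest, with a point for each of the 100 IDs, a black line at the median and a dashed line at the share of the degrees of freedom. The medians are 29.0% for experiment, 12.4% for line, 37.1% for replicate number and 12.3% for the rest.

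None of the 100 IDs was called different between a selected line and its control. These comparisons ask whether selection for low respiration went with a different level of the abundant messages. With edgeR's quasi-likelihood test, adjusted by Benjamini-Hochberg over all 36410 tested IDs at a threshold of 0.05, 0 of the 100 were called in PEG-1 against the PEG control (0% of all tested IDs), 0 in PEG-2 against the PEG control (0%) and 0 in the EUE epiline against the EUE control (0%). At an unadjusted p under 0.05 the counts were 0, 1 and 1 of the 100, beside 1310, 684 and 1519 of all tested IDs. DESeq2 also called 0 of the 100 in each, and the replicate number as a block gave 0 with lowest adjusted p-values of 0.400, 0.417 and 0.161. For DESeq2 and the block, the share of all tested IDs called in these comparisons is not given here.

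Joint and paired contrasts gave the same count. A test of all 3 line differences together called 0 of the 100 (0% of all tested IDs), and tests of the EUE line's difference against that of PEG-1 (0%) and that of PEG-2 (0%) called 0 each. At an unadjusted p under 0.05 these 3 tests gave 0, 0 and 1 of the 100, beside 1146, 405 and 338 of all tested IDs, and DESeq2 called 0 in each.

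Because the abundant IDs have small errors, the size of a difference can be bounded for most of them. The standard error of the log2 fold change had a median over the 100 IDs of 0.22 for both PEG lines and 0.18 for the EUE epiline, against 0.40, 0.40 and 0.32 over all tested IDs. The 95% interval stayed within a 2-fold change either way for 88 of the 100 IDs in PEG-1 (41.4% of all tested IDs), 86 in PEG-2 (42.9%) and 99 in the EUE epiline (55.1%). Within a 1.5-fold change it stayed for 46, 50 and 67 of the 100.

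In PEG-1, log2 fold changes ran from −0.50 to 0.31 with a median of −0.07 (−0.03 over all tested IDs), and 29 of the 100 were above 0. Every PEG-1 library was above every PEG control library in 2 IDs (14.7% of all tested IDs) and below in 18 (15.4%). With 2 libraries a group, a count of 18 is near the background, and the count of 2 is under it. With column totals the counts were 6 and 11 (18.4% and 12.2%). With TMM scaling the log2 fold change was below 0 in 71 of the 100, beside 53.1% of all tested IDs. The 2 IDs named here as the extremes without overlap were not called. ERF85431-ERC54614 had 4062 and 3237 CPM in PEG-1 and 2798 and 3084 in the PEG control, a log2 fold change of 0.31 with a standard error of 0.26, which ran from 0.14 to 0.47 with single libraries left out. ERC42161 had 1167 and 693 CPM in PEG-1 and 1421 and 1212 in the PEG control, a log2 fold change of −0.50 with a standard error of 0.31. It ran from −0.93 to −0.18 with single libraries left out, and the second PEG-1 library was the lowest.

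In PEG-2, log2 fold changes ran from −0.82 to 0.52 with a median of 0.00 (−0.01 over all tested IDs). With TMM scaling 50 of the 100 were above 0, and 51.7% of all tested IDs were below 0. Every PEG-2 library was above every PEG control library in 11 IDs (13% of all tested IDs) and below in 7 (13.1%), near the background or under it. With column totals the counts were 13 and 12 (13.9% and 12.2%). ERF82627-ERC32444 had 1645 and 1936 CPM in PEG-2 and 1480 and 1238 in the PEG control, a log2 fold change of 0.40 with a standard error of 0.19. ERF60595-ERC48086 had 2739 and 4002 CPM in PEG-2 and 4769 and 7163 in the PEG control, a log2 fold change of −0.82 with a standard error of 0.30 and an edgeR adjusted p of 1. Neither was called, and in each group of ERF60595-ERC48086 the second replicate was the higher one. Both PEG lines were set against the same PEG control libraries.

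In the EUE epiline, log2 fold changes ran from −0.68 to 0.24 with a median of −0.12 (−0.03 over all tested IDs). With TMM scaling 14 of the 100 were above 0 and 86 below, beside 54.9% of all tested IDs below 0. With column totals alone 29 were above 0, and the share of all tested IDs is not given here for that count. Every epiline library was above every control library in 0 IDs (3.8% of all tested IDs) and below in 8 (2.81%), which is more than the background downward and less upward. With column totals the counts were 0 and 7 (5.11% and 1.7%). ERF62874-ERC59097, the one of these with the largest difference, had 3450, 3142 and 3606 CPM in the epiline and 4403, 3747 and 4195 in the control. The difference was −0.28 on the log2 scale (standard error 0.15) and was not called, with an edgeR adjusted p of 1.

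The ID with the largest log2 difference in the EUE epiline, ERF69171, is named after its values were seen. It had 1027, 1363 and 1022 CPM in the epiline and 2216, 1944 and 1300 in the control, with 1 epiline library above 1 control library. The log2 fold change was −0.68 (standard error 0.27), and the edgeR adjusted p was 0.925. It was 0.161 with the replicate block.

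Across the 3 selected lines, 96 of the 100 IDs stayed under 0.5 in absolute log2 fold change in each line, and the largest value in any line was 0.82. In 36 IDs the fold change was below 0 in each of the 3 lines and in 1 it was above 0 in each, beside 24.6% and 18.7% of all tested IDs. With column totals the counts were 24 and 10, beside 19.1% and 24.2%. With column totals the count below 0 was thus near its background, and the count above 0 was under it. Any lean below 0 depended on the scaling, and in PEG-2 with TMM 50 of the 100 were above 0. Since PEG-1 and PEG-2 share their control libraries, these counts are not 3 separate observations.

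**Figure D5:**
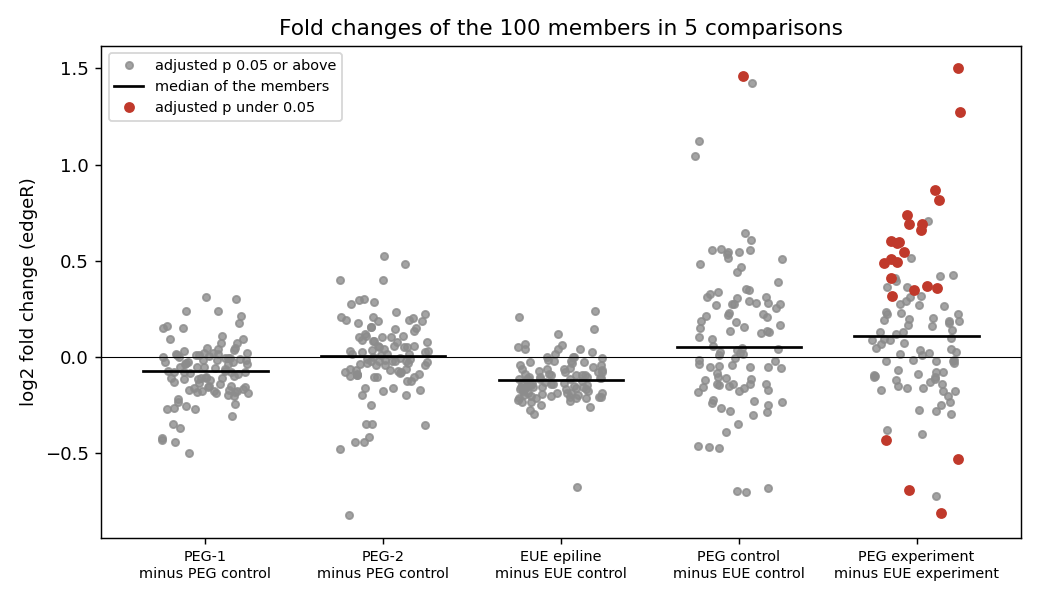
Log2 fold changes of the 100 IDs in PEG-1 and PEG-2 against the PEG control, in the EUE epiline against the EUE control, in the PEG control against the EUE control, and in the PEG experiment against the EUE experiment, with a point per ID, red where the adjusted p is under 0.05, and a black line at the median. The line comparisons lie between −0.82 and 0.52 with 0 red points, and the comparison of experiments has 24.

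Between the experiments, 24 of the 100 IDs were called. The mean of the 3 PEG groups was set against the mean of the 2 EUE groups in the same edgeR fit. The 24 that passed (20.5% of all tested IDs) were 20 higher in the PEG experiment (10.2%) and 4 lower (10.2%). The total is near the background, and the split leaned towards higher. Same-numbered libraries of an experiment deviated together, so the 12 libraries are fewer independent observations than the fit assumes and these p-values are too small. With the libraries of each replicate number summed, 2 PEG sets against 3 EUE sets, edgeR called 1 of the 100 (3.69% of all tested IDs), which was ERF91594, an alternative added after the values were seen. At an unadjusted p under 0.05 that fit gave 18 of the 100, beside 19.5% of all tested IDs. The split also depended on scaling. With column totals alone 25 IDs were called, 14 higher and 11 lower, and 18 of these were among the 24. That scaling moved the median log2 fold change of all tested IDs to −0.18, against −0.05 with TMM, and that of the 100 IDs to −0.02, against 0.11. DESeq2 called 30 of the 100, 25 higher and 5 lower, including all 24. No share of all tested IDs is given here for column totals or DESeq2, so those counts lack a background.

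Every PEG library was above every EUE library in 12 of the 100 (6.46% of all tested IDs) and below in 2 (5.08%). With column totals these counts were 9 and 9 (4.76% and 7.36%). The 95% interval stayed within a 2-fold change for 89 of the 100 (53.2%). Since same-numbered libraries deviated together, the intervals and standard errors of this comparison are too narrow, as its p-values are too small. Each line belongs to 1 experiment only, so a difference between lines and one between batches of plants or libraries cannot be told apart here.

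ERF91594 had the largest difference, 2.83-fold in PEG over EUE with a standard error of 0.19 on the log2 scale and an edgeR adjusted p of 3.5e-04. Over the alternatives its adjusted p ran from 5.83e-12 to 0.0175, the highest with summed sets. ERF60795-ERC24906 followed with a log2 fold change of 1.27, a standard error of 0.24 and an edgeR adjusted p of 0.00398. Its adjusted p ran from 5.92e-06 to 0.0612 over the alternatives, and the call was lost with summed sets. In both IDs all 6 PEG libraries were above all 6 EUE libraries.

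Lower in the PEG experiment, ERF85764-ERC33080 had 2635 and 2545 CPM in PEG-1, 2442 and 2892 in PEG-2, and 2674 and 2920 in the PEG control, against 4366, 3405 and 4632 CPM in the EUE epiline and 4571, 3658 and 5409 in the EUE control. All PEG libraries were below all EUE libraries. The log2 fold change was −0.69 (standard error 0.13) with an edgeR adjusted p of 0.00453, and over the alternatives the adjusted p ran from 3.29e-05 to 0.159, with the call lost only with summed sets.

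ERF56551-ERC52440 had 1295 and 500.1 CPM in PEG-1, 1085 and 613 in PEG-2, and 1486 and 679 in the PEG control, against 1634, 1296 and 1717 CPM in the EUE epiline and 1704, 1818 and 1736 in the EUE control. In each PEG group the second replicate was the lower one. Of the first replicates only that of the PEG control reached into the EUE range, and that of PEG-1 lay just under it. The log2 fold change was −0.81 (standard error 0.26) with an edgeR adjusted p of 0.0457. The call was lost with upper-quartile factors, with summed sets and without any of 9 single libraries, namely each EUE library and the second replicate of each PEG group, and its adjusted p ran from 8.82e-05 to 0.235. The other lower IDs, ERC31276 and ERF92954, are named after their values were seen, with log2 fold changes of −0.53 and −0.43 and edgeR adjusted p-values of 0.0128 and 0.0394.

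By class, 20 of the 81 joined IDs were called between experiments, 18 of them higher in PEG, beside 3 of the 10 ERF-only and 1 of the 9 ERC-only IDs. Over all tested IDs the shares called were 19.4%, 22.7% and 19.9%, so none of these counts stood far from its class. With single libraries left out, 10 to 22 of the 100 were called. The lowest counts came without the second replicates, with 10 without that of PEG-2, 13 without that of PEG-1 and 14 without that of the PEG control, and the count was 14 without the first replicate of the EUE control. With the replicate number as a block the count was 44 (42.2% of all tested IDs) and all 24 were among them. That block takes the spread between replicate numbers out of the error, which makes p-values too small for a difference between experiments.

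Between the 2 control lines alone, 1 ID was called, higher in the PEG control (2.94% of all tested IDs were called, 1.81% higher and 1.13% lower). This was ERF91594, at 24370 and 31348 CPM in the PEG control and 14026, 7877 and 8525 in the EUE control. The log2 fold change was 1.46 (standard error 0.29) with an edgeR adjusted p of 0.0204. The adjusted p ran from 2.57e-04 to 0.178 over the alternatives, and the call was lost without replicate 2 or 3 of the EUE control or without replicate 2 of the PEG control. At an unadjusted p under 0.05 there were 11 of the 100, beside 15.9% of all tested IDs.

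The 95% interval stayed within a 2-fold change for 78 of the 100 IDs between the controls (37.1% of all tested IDs). Every PEG control library was above every EUE control library in 26 IDs (14.9%) and below in 10 (14.1%), and with column totals in 20 and 22 (11.7% and 18.8%). ERF85764-ERC33080, not called in this comparison, had 2674 and 2920 CPM in the PEG control and 4571, 3658 and 5409 in the EUE control, a log2 fold change of −0.70 with a standard error of 0.21. Its edgeR adjusted p was 0.120, and 0.00635 with the replicate block, which called 16 of the 100 (15.7% of all tested IDs). DESeq2 called 6.

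Some of the abundant IDs have close numbers. Of the 100, 13 formed 10 pairs that lay within 10 numbers of each other in at least 1 of the ERF and ERC parts, a comparison added after the values were seen. Whether close numbers stand for neighbouring or duplicated genes is not stated in the labels. ERF93421-ERC39186, ERF93418, ERC39187 and ERF93423-ERC39183 were such a set, at ranks 1, 3, 9 and 81. Over the 12 libraries, the log2 CPM of the IDs in a pair correlated at −0.61 to 0.86, and most pairs were above 0. Below 0 were ERF56540-ERC52450 with ERF56551-ERC52440 (−0.61), ERF92955-ERC40201 with ERF92954 (−0.34) and ERC39187 with ERF93423-ERC39183 (−0.21).

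ERF92955-ERC40201 and ERF92954, which follow each other in ERF number, lay in opposite directions. ERF92955-ERC40201 had 6365 and 6758 CPM in PEG-1, 6397 and 6813 in PEG-2, and 7899 and 6273 in the PEG control, against 4097, 5614 and 4579 CPM in the EUE epiline and 4987, 5987 and 5282 in the EUE control. ERF92954 had 1468 and 1730 CPM in PEG-1, 1357 and 1652 in PEG-2, and 1892 and 1338 in the PEG control, against 1837, 2190 and 2035 CPM in the EUE epiline and 2069, 2590 and 2024 in the EUE control. Both were called between experiments, though not with summed sets, with log2 fold changes of 0.41 and −0.43 and edgeR adjusted p-values of 0.0340 and 0.0394. Their sum was 7610 to 9791 CPM in PEG libraries, with a median of 8149, and 5934 to 8577 in EUE libraries, with a median of 7181. The sum therefore overlapped between experiments.

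For ERF91594 and ERF91591-ERC46338, 3 numbers apart, the sum kept the difference of the first. It was 25195 to 38524 CPM in PEG libraries and 11863 to 19386 CPM in EUE libraries, without overlap. ERF91591-ERC46338 by itself had a log2 fold change of 0.20 with a standard error of 0.13 between the experiments and was not called. For ERF56540-ERC52450 and ERF56551-ERC52440 the sum was 3531 to 4779 CPM in PEG libraries, with a median of 4336, and 3370 to 4970 CPM in EUE libraries, with a median of 4152, so the sums overlapped.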

How the data were processed

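The authors deposited unnormalized read counts, 1 column for each of the 12 libraries and 1 row per ID, and 0 columns matched no sample. The labels' protocols describe RNA from polysomes spun down in sucrose and polyA libraries made at BGI. GSNAP and SAMtools appear in the submitters' processing notes. Which genome, annotation, counting program and strand setting they used is not stated in the sources used here. All values were even, so counts divided by 2 were an alternative.

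Shares and ranks used CPM on column totals. Levels used CPM with TMM factors. SDs of log2 levels used a prior count of 2. Tests used edgeR 4.0.16 in R 4.3.3 (filterByExpr with a minimum count of 10, quasi-likelihood F-test, 1 mean for each of 5 groups, all 12 libraries), adjusted by Benjamini-Hochberg over 36410 IDs. Standard errors and 95% intervals came from the F statistic. DESeq2 1.42.0 was an alternative, beside other scaling factors, other filters, the replicate block, 1 experiment only, each library left out and, added after the data were seen, summed libraries of each replicate number. The scripts were tested on simulated data. The common biological coefficient of variation was 32.2%, and 18.7% with the replicate block, and it limits the precision more than counting error does at these depths.

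Same-numbered libraries were compared by their deviations from group means over 17409 IDs. They correlated in the EUE experiment at 0.60, 0.73 and 0.61, and differently numbered ones at −0.06 or below, so the EUE numbers were taken as pairs, from the data and not from the labels. Same-numbered PEG libraries correlated at 0.53 between PEG-1 and the PEG control, 0.69 between PEG-2 and the PEG control, and 0.55 between the PEG lines. With 2 numbers a group, this does not establish pairing there.

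IDs named in the text were the 10 most abundant, the 2 steadiest and 2 most variable, the 2 on either side of the border, and at most 2 higher and 2 lower in a comparison: those called with the largest fold change or, with none called, the largest without overlap. Others are marked as chosen after their values were seen. The 100 IDs, the comparisons and this rule were chosen with earlier results of these data known. No gene list was tested, since 0 IDs matched the RefSeq table.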

Additional observations from a re-analysis of the deposited data

Results flagged for a closer look

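ERF82627-ERC32444 lay on opposite sides of its control in the EUE epiline and in PEG-2. It had 1161, 1356 and 1315 CPM in the EUE epiline, all below the 1413, 1364 and 1650 CPM of the EUE control, and 1645 and 1936 CPM in PEG-2, all above the 1480 and 1238 CPM of the PEG control. The EUE difference minus the PEG-2 difference was −0.61 on the log2 scale with a standard error of 0.25. Its unadjusted p was 0.0325 and the edgeR adjusted p over all tested IDs was 1.00, so the difference between the lines did not pass the threshold. Of the 100 IDs, 2 had all libraries of the EUE epiline on one side of their control and all those of PEG-2 on the other, and 0 did so for PEG-1, beside 0.42% and 0.453% of all tested IDs. Groups of 2 or 3 libraries are too small for a test of a single outlying library.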

How the results depend on the processing

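The count of 0 called IDs in each line comparison was the same under every alternative run, which were DESeq2 size factors, upper-quartile factors, column totals, DESeq2, no filter, a minimum of 5 CPM in 2 or more libraries, the replicate block, counts divided by 2, TMM factors without the 100 IDs, 1 experiment only and each library left out. Between the control lines the count of 1 was 2 with column totals, 4 without a filter, 6 with DESeq2 and 16 with the replicate block, and 0 to 4 with single libraries left out. Between experiments the count of 24 was 44 with the replicate block, 1 with the libraries of each replicate number summed (chosen after seeing the data), 10 to 22 with single libraries left out, and 21 to 30 under the other alternatives. The share of all tested IDs called also changes with the setting. Where that share is not given above, these counts cannot be set against a background. The share held by the 50 and by the 200 most abundant IDs was 30.1% and 45.1% in PEG-1, 30.2% and 45.6% in PEG-2, 31.1% and 46.2% for the PEG control, 26.7% and 41.6% in the EUE epiline, and 28.0% and 43.2% in the EUE control. Without the most abundant ID it was 35.5%, 35.9%, 36.6%, 32.6% and 33.9% in these groups, and without ERF91594, chosen after seeing the data, 34.7%, 35.4%, 35.9%, 33.5% and 34.9%. The experiments shared 46 of their 50 and 178 of their 200 most abundant IDs, and 89 to 92 of 100 with single libraries left out. With single libraries left out the share was 36.8% to 37.7% in PEG-1, 36.7% to 39.0% in PEG-2, 38.4% to 38.5% for the PEG control, 34.2% to 34.8% in the EUE epiline and 35.4% to 36.9% in the EUE control. None of the 11 fold changes named by the rule turned its direction under these alternatives, and the other named ones were not recomputed. The cause of these shifts was not tested.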
